A study of Homo sapiens with 8 samples.

Results

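The 32 genes described here encode the proteins of the small (40S) ribosomal subunit. They were chosen by name, from RPSA and RPS2 through RPS29 to FAU, and matched by Ensembl gene ID (RPS12 as ENSG00000112306, RPS20 as ENSG00000008988, RPS21 as ENSG00000171858, RPS13 as ENSG00000110700) to 32 of the 19580 rows of the footprint table, which holds 1 transcript per gene. The 40S subunit binds the mRNA, scans to the start codon and pairs codons with tRNAs, and each of these proteins is built into the subunit once. Their mRNAs belong to the 5' TOP class, which starts with a C followed by a run of pyrimidines and whose translation is tied to growth signalling through mTORC1 and LARP1. Several of the proteins are also marked with ubiquitin when ribosomes stall or collide, which makes them part of the surveillance system in which RNF14 works.

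Ribosome footprints were sequenced from HAP1 cells, an adherent, near-haploid human line that goes back to a chronic myeloid leukaemia, in wild-type cells and in cells without RNF14. This E3 ubiquitin ligase acts at stalled ribosomes. All cells, in every group, had taken up 4-thiouridine (4SU, 5 uM for 18 h) and been irradiated with UVA at 6 kJ/m2, a combination that crosslinks RNA to bound proteins. They were harvested at 0 min (unrecovered) or 30 min (recovered), with 2 biological replicates in each of the 4 groups, and no unirradiated cells were analysed here. Sources used here do not give whether the knockout line is 1 clone. RNF14 itself and blood-lineage markers could not be looked up, since the gene table used here pairs no Ensembl IDs with names. The 8 libraries held between 323946 and 1241975 reads. Every library at 30 min was shallower than every library at 0 min. The shallowest was knockout 30 min replicate 1, with 323946 reads against 459227 in its replicate.

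The annotated starts of these genes show the sequence class that the rule did not use. RefSeq promoter windows (GRCh38.p14) were found for 25 of the 32 genes, and RPS2, RPS15A and RPS20 are among those without one. At an annotated first base, 19 of the 25 had a C followed by at least 4 pyrimidines (C or T, read on the gene's strand), in runs of 6 to 14 bases. RPS27A and RPS19 have several annotated starts, and a gene was counted if any of its starts had the run. By window, the pattern stood at 19 of the 28 windows of these genes and at 4.07% of all 35116 promoter windows. The starts of genes whose footprints changed in the comparisons below are shown here, 10 bases before and 20 bases from the annotated start, with the pyrimidine run in capitals. The first 6 belong to genes called higher after recovery and the last 3 to genes called lower.
RPS13 (chr11:17077648-17077677, minus strand): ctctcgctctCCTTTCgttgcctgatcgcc
RPS24 (chr10:78033853-78033882, plus strand): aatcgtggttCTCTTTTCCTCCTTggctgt
RPS3 (chr11:75399508-75399537, plus strand): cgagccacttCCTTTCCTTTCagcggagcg
FAU (chr11:65122115-65122144, minus strand): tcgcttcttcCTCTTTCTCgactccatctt
RPS10 (chr6:34426050-34426079, minus strand): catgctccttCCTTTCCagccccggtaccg
RPS4X (chrX:72277229-72277258, minus strand): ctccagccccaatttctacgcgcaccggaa
RPS12 (chr6:132814559-132814588, plus strand): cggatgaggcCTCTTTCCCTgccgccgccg
RPS21 (chr20:62387093-62387122, plus strand): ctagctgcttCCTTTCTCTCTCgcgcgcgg
RPS14 (chr5:150449720-150449749, minus strand): ccctcccactCTCTCTTTCCggtgtggagt
Pyrimidine runs of similar kind stand at the starts of genes that rose and of genes that fell, and RPS4X, which rose, has none at its annotated start. The other 5 genes without a run at the annotated base were RPS7, RPS15, RPS26, RPS28 and RPS29.

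Footprint levels differed widely among proteins that the ribosome holds in equal number. Levels are given as RPKM, reads scaled to transcript length and to library depth. The length is that of the 1 listed transcript, and the counted region is not given, so levels of different genes compare only roughly. Mean RPKM over the 8 libraries ran from 2.18 for RPS3A to 3349 for RPS21, with a median of 376.7, against a median of 12.5 for the 11920 transcripts with a mean of at least 1 RPKM. All 32 genes passed that minimum and were tested, and 29 of them lay in the top 10% of all 19580 transcripts. The 3 others were RPS3A, RPS28 and RPS10. In the 2 cases with under 50 reads over all libraries, RPS3A (14 reads) and RPS10 (33 reads), single reads decide the value. Both had a mean below 1 RPKM in at least 1 group and passed the minimum only through the time at which they were high, so they had to differ between the times. Their calls are therefore given as a description, and the count of calls in each recovery is also given without them.

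The highest levels belonged to RPS21 and RPS16. RPS21, one of the smallest 40S proteins, had 4137 and 4885 RPKM in unrecovered wild-type cells, 2813 and 2803 RPKM in recovered ones, 4242 and 4353 RPKM in unrecovered knockout cells, and 1344 and 2219 RPKM in recovered ones. RPS16, whose tail reaches the tRNA in the P site, had 1355 and 1426 RPKM in unrecovered wild-type cells, 1755 and 1744 RPKM in recovered ones, 2102 and 2061 RPKM in unrecovered knockout cells, and 1546 and 1998 RPKM in recovered ones. RPS21 exceeded RPS16 in 7 of 8 libraries. In knockout 30 min replicate 1 it lay below RPS16, so the order of these neighbours did not hold there. RPS20, at a mean of 1154 RPKM, and RPS14, at 1089 RPKM, had libraries that overlapped.

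The 8 genes with the lowest levels were RPS2, RPSA, RPS26, RPS7, RPS29, RPS10, RPS28 and RPS3A, from 79.3 down to 2.18 RPKM. Ribosomal protein genes have many near-identical processed pseudogenes, and for reads that map to several places the authors' treatment is not given here. The RefSeq gene table lists 697 pseudogenes named after these 32 genes, with a median of 14.5 per gene. Among these 8, RPSA has 74, RPS26 has 59, RPS2 has 55, RPS3A has 54, RPS29 has 33, RPS10 has 31, RPS7 has 15 and RPS28 has 9. Across the 32 genes, mean RPKM and the number of pseudogenes had a Spearman's rho of -0.45, and mean RPKM and transcript length one of -0.50. Both are descriptions over genes that share the same libraries, and the part of shared reads or of the chosen transcript in these levels was not tested. Levels of the genes rich in pseudogenes are therefore uncertain, and so is RPS29, whose listed transcript has 7062 nt against a median length of 867.5 nt.

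**Figure D1:**
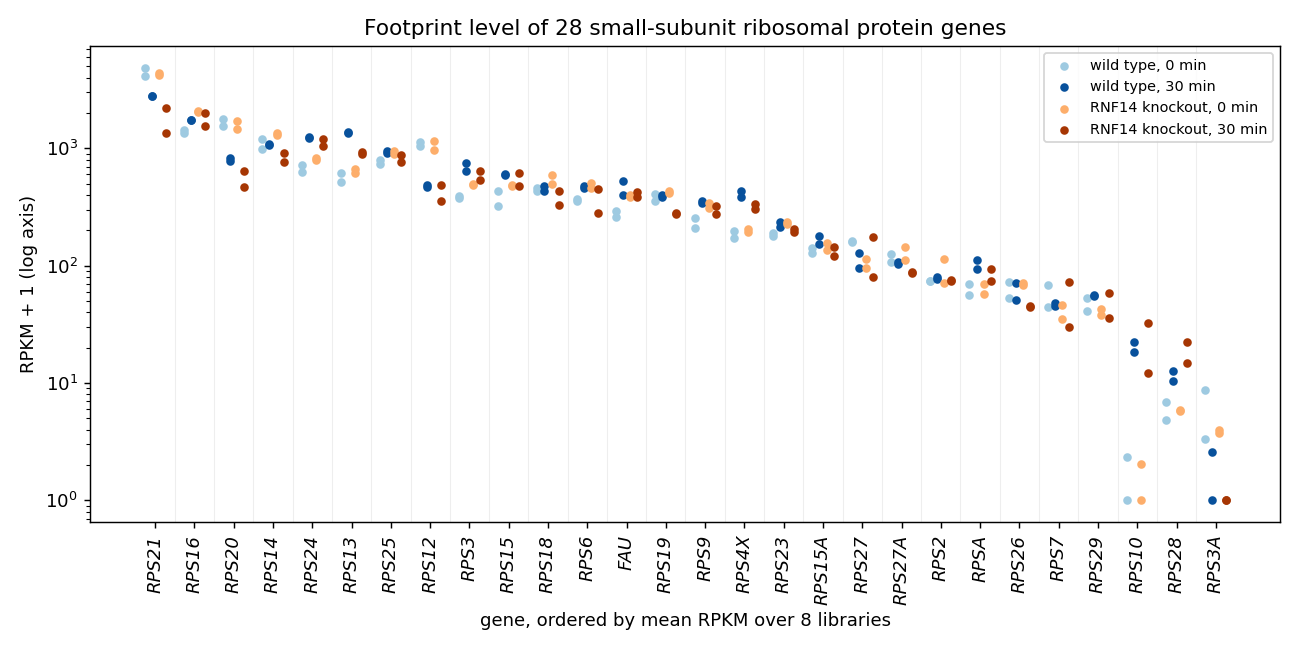
Footprint level of 28 of the genes in each of the 8 libraries, as RPKM + 1 on a log axis, with genes ordered by mean RPKM from RPS21 (3349) to RPS3A (2.18). Each point is 1 library, and colours mark the 4 groups; RPS12, RPS20 and RPS21 have all their 30 min points below their 0 min points, and RPS13 and RPS4X have them above.

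The first comparison asked how footprints on these genes changed in the 30 min after irradiation in wild-type cells. The genes did not move together. The genes that rose included RPS13, RPS4X, RPS24, RPS3 and FAU, and RPS12 and RPS20 fell. Of the 32 genes 9 were called, against 3.23% of tested transcripts. In all, 7 of 32 genes were called higher, where 1.79% of all tested transcripts were, and 2 were called lower, where 1.44% were (limma-trend on log2(RPKM + 1), Benjamini-Hochberg over all 11920 transcripts, threshold 0.05). Without RPS10 and RPS3A, 6 of 30 were higher and 2 lower. Among the 884 other transcripts of at least 100 RPKM, 15.6% were called higher and 4.86% lower, with a median log2 change of 0.03, against 6 and 2 of the 24 small-subunit genes at that level. The median log2 change of the 32 was 0.28, against -0.26 for all tested transcripts, but -0.02 when values were rescaled to TPM, where the median of all transcripts was -0.54. A change in footprints can come from the amount of mRNA or from its translation, and in bulk cells fewer cells and less RNA per cell cannot be told apart.

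RPS13, a protein of the subunit's body, had 516 and 615 RPKM at 0 min and 1353 and 1371 RPKM at 30 min in wild type. Both later libraries lay above both earlier ones, and the log2 change was 1.27 (SE 0.13, adjusted p = 0.000729). RPS4X, also in the body and encoded on the X chromosome, went from 197 and 170 to 385 and 435 RPKM, a log2 change of 1.16 (SE 0.16, adjusted p = 0.00349). RPS24, one of the genes mutated in Diamond-Blackfan anaemia, went from 721 and 630 to 1216 and 1240 RPKM, a log2 change of 0.86 (SE 0.13, adjusted p = 0.0075). In these 3 genes the groups did not overlap, and the gap between groups exceeded the spread within each.

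The 2 genes called lower in wild type both encode proteins of the subunit's head. The count called lower was 3 with values rescaled to TPM and 1 with median centring. RPS12, in the beak of the head, went from 1123 and 1037 RPKM at 0 min to 465 and 485 RPKM at 30 min, a log2 change of -1.18 (SE 0.17, adjusted p = 0.00517). RPS20, which ZNF598 marks with ubiquitin on collided ribosomes, went from 1545 and 1767 to 785 and 832 RPKM, a log2 change of -1.03 (SE 0.17, adjusted p = 0.00937). In both genes the later libraries lay below the earlier ones. RPS21, counted with the body and platform, also had both later libraries below both earlier ones. Its log2 change of -0.68 did not pass the test (SE 0.20, adjusted p = 0.0873).

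The log2 change was below 0 in 10 of 32 genes in wild type, against 68.8% of tested transcripts. Shares by sign, library order or unadjusted p were not counted for the 884 other transcripts of at least 100 RPKM, here or below. In wild type, 20 of 32 genes had both 30 min libraries above both 0 min libraries, where 14% of tested transcripts did. Both were below in 6 genes, RPS12, RPS20, RPS21 and RPS27 among them, where 38.9% of tested transcripts did. RPS10 is among the 20 and RPS3A among the 6. These genes passed the minimum only through the time at which they were high, so their part in these counts is a description. The count of 9 called genes fell to 2 without wild type 30 min replicate 1, to 1 without wild type 30 min replicate 2, and to 5 and 4 without wild type 0 min replicate 1 or 2. RPS13 was called in each of these fits. The count was 0 without a trend in the prior variance, although with the trend 17 of the 32 had an unadjusted p below 0.05 (20.9% of tested transcripts), and limma voom on whole reads computed from the RPKM called 11.

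The same comparison was made in the RNF14 knockout. RPS28 rose, and RPS12, RPS14, RPS20 and RPS21 fell. The 6 called genes stand against 1.97% of tested transcripts. Of the 32, 2 were called higher, against 0.646% of all tested transcripts, and 4 were called lower, against 1.33% (limma-trend, adjusted p below 0.05). Without RPS10 and RPS3A, 1 of 30 was higher and 4 lower. Among the other transcripts of at least 100 RPKM, 5.66% were called higher and 7.92% lower, with a median of -0.28, against 0 and 4 of the 24 small-subunit genes at that level. The log2 change was below 0 in 19 of 32 genes, against 58.6% of tested transcripts. The median log2 change was -0.16, against -0.12 for all tested transcripts, and it was 0.11 after quantile normalization. Rescaling moved the split of calls: TPM gave 2 up and 7 down, median centring 1 up and 2 down, and quantile normalization 4 up and 3 down.

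RPS20 went from 1466 and 1721 RPKM at 0 min in the knockout to 472 and 643 RPKM at 30 min, a log2 change of -1.53 (SE 0.17, adjusted p = 0.0019). RPS12 went from 960 and 1146 to 356 and 489 RPKM, a log2 change of -1.33 (SE 0.17, adjusted p = 0.00387). RPS21 changed by -1.31 on the log2 scale (SE 0.20, adjusted p = 0.0104), from the values given above. In these 3 genes the times did not overlap. RPS14, a platform protein whose loss underlies the anaemia of the 5q deletion syndrome, went from 1298 and 1362 to 759 and 918 RPKM, a log2 change of -0.67 (SE 0.14, adjusted p = 0.0461), a call lost under 13 of 22 alternatives. In wild type RPS14 had 997 and 1211 RPKM at 0 min and 1074 and 1091 RPKM at 30 min, values that overlap.

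Of the genes that rose in wild type, RPS13 had 613 and 670 RPKM at 0 min and 902 and 934 RPKM at 30 min in the knockout, a log2 change of 0.52 that did not pass (SE 0.13, adjusted p = 0.0787). RPS4X had 206 and 193 against 302 and 334 RPKM, a log2 change of 0.66 (SE 0.16, adjusted p = 0.0611). RPS24 had 798 and 832 against 1041 and 1211 RPKM, a log2 change of 0.46 (SE 0.13, adjusted p = 0.106). All 3 had every 30 min library above every 0 min library, as had 8 of the 32 genes, against 18.6% of tested transcripts. Every 30 min library was below every 0 min library in 15 of the 32, against 30.9%. RPS10 is among the 8 and RPS3A among the 15, and their part is a description, as in wild type. The count of 6 called genes was 3 without knockout 30 min replicate 1, the shallowest library, 3 without knockout 0 min replicate 1, and 1, RPS20, without knockout 0 min replicate 2. The count was 0 without a trend in the prior variance, although with the trend 16 of the 32 had an unadjusted p below 0.05 (18.4% of tested transcripts), and voom called 7.

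**Figure D2:**
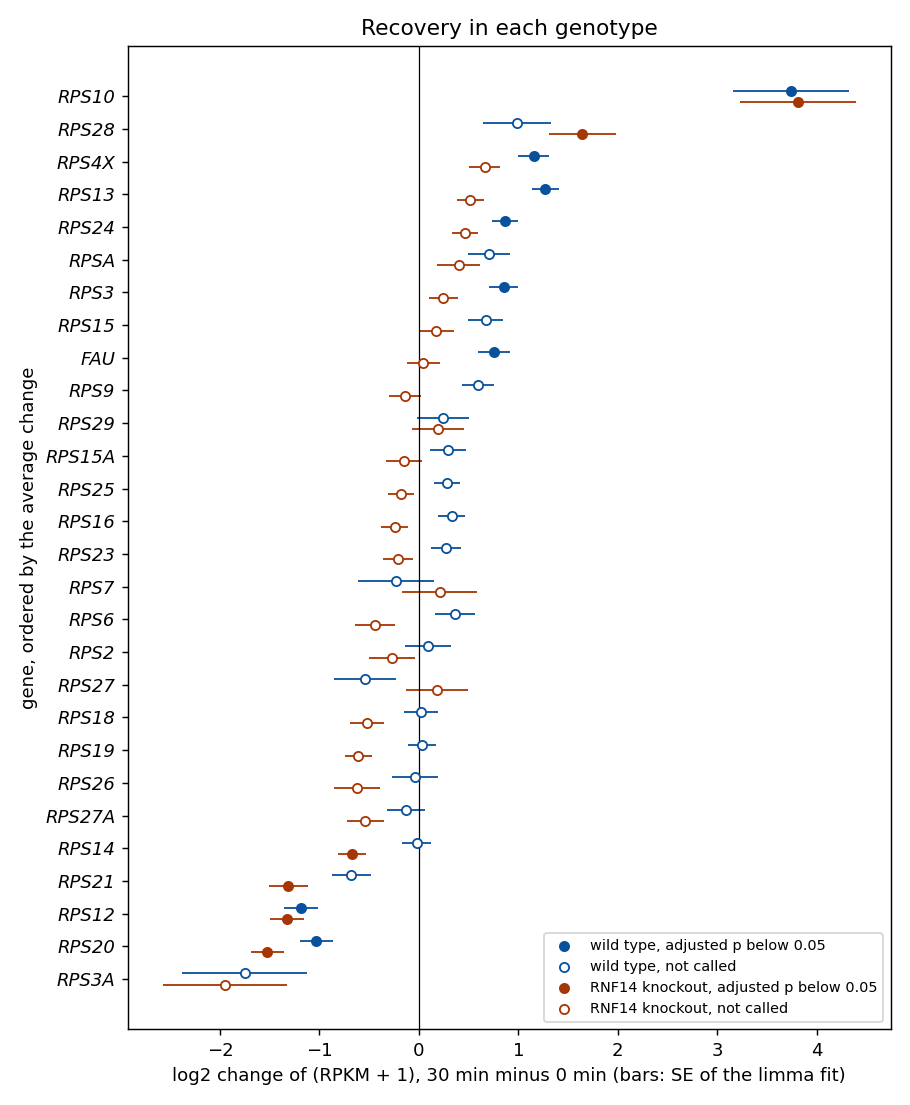
Log2 change of RPKM + 1 from 0 to 30 min for 28 of the genes in wild type (blue) and the RNF14 knockout (brown), with the standard error of the limma fit as bars and filled points for an adjusted p below 0.05. Genes are ordered by the average change; RPS12 and RPS20 are filled in both genotypes on the left, and RPS10 on the right.

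The 2 recoveries share no library, so their values can be set side by side. Across the 32 genes the log2 changes in wild type and knockout had a Pearson's r of 0.92 and a Spearman's rho of 0.81, and without RPS10 they were 0.85 and 0.79. Both pairs of values include RPS3A, at -1.75 and -1.95, which passed the minimum only through its 0 min libraries. Values without both RPS10 and RPS3A were not computed. Over the 884 other transcripts of at least 100 RPKM the values were 0.76 and 0.75, and over all 11920 tested transcripts 0.17 and 0.13. These are descriptions over genes read from the same libraries, and genes are not replicates. The sign was positive in both genotypes for 11 genes, negative in both for 8, positive only in wild-type cells for 11, and the reverse for RPS7 and RPS27.

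Averaged over both genotypes, 4 libraries against 4, the genes again differed in direction. RPS28, RPS4X, RPS13, RPS24 and RPS3 were among those that rose, and RPS20, RPS12 and RPS21 fell. Called in either direction were 11 of 32 genes, against 7.79% of tested transcripts. The 7 higher genes compare with 2.45% of tested transcripts called higher and the 4 with 5.34% called lower (limma-trend, adjusted p below 0.05). Without RPS10 and RPS3A, 6 of 30 were higher and 3 lower. Among well-read genes the changes were -1.28 for RPS20 (SE 0.12, adjusted p = 0.000163), -1.26 for RPS12 (SE 0.12, adjusted p = 0.00022), -0.997 for RPS21 (SE 0.14, adjusted p = 0.00285), 0.91 for RPS4X (SE 0.11, adjusted p = 0.00136) and 0.90 for RPS13 (SE 0.09, adjusted p = 0.000482). All 11 called genes had the 4 libraries of one time beyond the 4 of the other. So had RPSA, whose log2 change of 0.55 did not pass (SE 0.15, adjusted p = 0.0522). In all, the 4 later libraries were above the 4 earlier ones in 8 genes, against 3.17% of tested transcripts, and below them in 5, against 10%. RPS10 is among the 8 and RPS3A among the 5, and both are among the 11. These 2 genes passed the minimum only through the time at which they were high, so their part here is a description.

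The average log2 change was below 0 in 14 of 32 genes, against 68.9% of tested transcripts, and 18 had an unadjusted p below 0.05, against 24.3%. The median log2 change was 0.05 over the 32 genes, -0.19 over all tested transcripts and -0.12 over the 884 other transcripts of at least 100 RPKM. In that abundant class, 16.4% were called higher and 21.5% lower, so abundant transcripts were called more often in both directions than transcripts at large. Of the 24 small-subunit genes at or above 100 RPKM, 5 were called higher and 3 lower. The split over the 32 was 7 up and 4 down as deposited. TPM gave 7 up and 10 down, median centring 8 up and 3 down, quantile normalization 10 up and 4 down, and centring each library on the 32 genes themselves 7 up and 7 down. In this average RPS12 and RPS20 kept their call under every alternative in which they were tested. RPS10 did so too, but it passed the minimum only through the time at which it was high, so this is a description. The count of 11 was 7 without either knockout library at 0 min and 4 without a trend in the prior variance.

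The genes called in none of these 3 fits of recovery numbered 19, against 13 called in at least 1. RPSA, RPS2, RPS6, RPS9, RPS15, RPS16, RPS18, RPS19, RPS25, RPS26 and RPS27A were among them. In wild type their log2 changes ran from -0.54 for RPS27 to 0.71 for RPSA, the laminin receptor protein at the back of the subunit. Of the 19, 12 had both recovered wild-type libraries on top, against 14% of tested transcripts. In the knockout the changes ran from -0.62 for RPS26, which contacts mRNA upstream of the start codon, to 0.40 for RPSA. Both recovered knockout libraries lay at the bottom in 10 of the 19, against 30.9% of tested transcripts. The 19 were picked by their outcome in the same fits, so these counts are a description. RPS19, the gene most often mutated in Diamond-Blackfan anaemia, had 358 and 410 RPKM in unrecovered wild-type cells, 398 and 385 RPKM in recovered ones, 429.9 and 416 RPKM in unrecovered knockout cells, and 275 and 279 RPKM in recovered ones. Its recovered knockout libraries were its lowest, and the log2 change there of -0.61 did not pass (SE 0.14, adjusted p = 0.0569).

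By place in the subunit, 3 of the 14 head proteins were called higher in the average (RPS3, RPS10 and RPS28) and 2 lower (RPS12 and RPS20). Of the 18 proteins of the body and platform, 4 were called higher (RPS4X, RPS13 and RPS24 among them) and 2 lower (RPS3A and RPS21). These counts stand against 2.45% and 5.34% of all tested transcripts and 16.4% and 21.5% of the abundant class. RPS10, RPS28 and RPS3A rest on 33, 61 and 14 reads. RPS10 and RPS3A passed the minimum only through the time at which they were high, so their part in these counts is a description. Without them, 6 of the 30 genes left were called higher and 3 lower. The medians of the average change were 0.05 for the head and 0.05 for the body and platform. Across the 32 genes the average change had a Spearman's rho of 0.11 with transcript length, -0.13 with mean RPKM and -0.27 with the number of pseudogenes, given as descriptions.

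RPS12, RPS20 and RPS21, picked here after their values were seen, carried a large share of the reads on this gene set. Together they took 0.346% and 0.389% of all reads in unrecovered wild-type cells, 0.200% and 0.204% in recovered ones, 0.336% and 0.369% in unrecovered knockout cells, and 0.110% and 0.166% in recovered ones. The other 29 genes took 0.938% and 1.01% in unrecovered wild-type cells, 1.27% and 1.29% in recovered ones, 1.19% and 1.17% in unrecovered knockout cells, and 1.03% and 1.16% in recovered ones. The joint share of the 3 was thus lower at 30 min in both genotypes, while the other 29 lay higher at 30 min in wild type and slightly lower in the knockout. Of the reads on the 32 genes, RPS21 alone made up 13.5% and 14.6% in unrecovered wild-type cells, with 7.93% ± 0.0976 after recovery (SD, n = 2). Its part in knockout cells was 11.7% ± 0.126 before recovery and 5.97% ± 1.45 after it (SD, n = 2). RPS13 differed the other way within the set, from 2.22% ± 0.144 to 4.85% ± 0.00421 in wild-type cells (SD, n = 2). In knockout cells it moved from 2.20% ± 0.123 to 3.95% ± 0.333 (SD, n = 2). These shares within the set do not depend on how the libraries are scaled to each other.

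**Figure D3:**
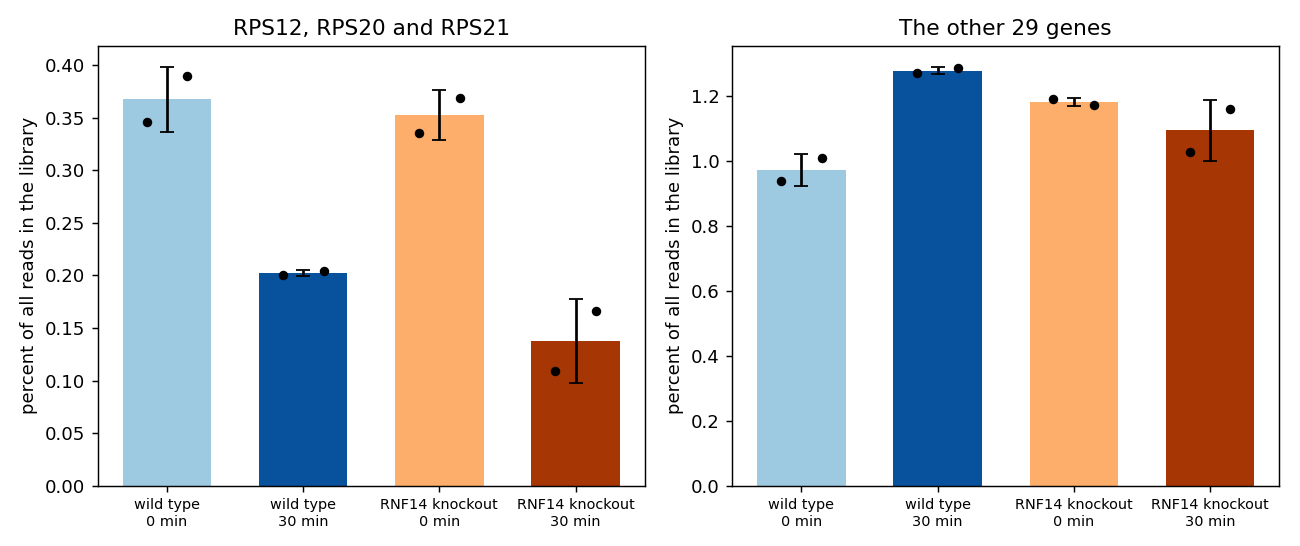
Percent of all reads in a library that fell on RPS12, RPS20 and RPS21 (left) and on the other 29 genes (right), with bars for the group mean, error bars for the SD of 2 replicates and a point for each library. Group means in the left panel are 0.367% and 0.202% for wild type at 0 and 30 min, then 0.352% and 0.138% for the knockout; in the right panel the wild-type means are 0.973% and 1.28%.

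All 32 genes together took 1.28% and 1.40% of reads in unrecovered wild-type cells, 1.47% and 1.49% in recovered ones, 1.53% and 1.54% in unrecovered knockout cells, and 1.14% and 1.33% in recovered ones. Recovered wild-type libraries thus had the higher share and recovered knockout libraries the lower one, with no overlap in either genotype. As a share of summed RPKM, which weights short transcripts more, the wild-type value was 3.05% ± 0.0538 before recovery and 2.59% ± 0.117 after it (SD, n = 2). The knockout value was 3.15% ± 0.0608 before and 2.22% ± 0.289 after (SD, n = 2). The direction in wild type therefore turns with the measure, and the direction in the knockout does not.

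Proteins that carry ubiquitin on stalled ribosomes are of interest in a study of RNF14, and they did not share a direction. RPS3 and RPS2, near the mRNA entry, are marked by RNF10. RPS3 had 373 and 391 RPKM in unrecovered wild-type cells, 748 and 637 RPKM in recovered ones, 488 and 498 RPKM in unrecovered knockout cells, and 538 and 636 RPKM in recovered ones. It rose in wild type, by 0.85 on the log2 scale (SE 0.15, adjusted p = 0.0139), and its log2 change in the knockout was 0.25 (SE 0.15, adjusted p = 0.407). RPS2 had 72.5 and 73.0 RPKM in unrecovered wild-type cells, 79.6 and 75.8 RPKM in recovered ones, 114 and 70.7 RPKM in unrecovered knockout cells, and 75.1 and 73.7 RPKM in recovered ones. Its log2 changes of 0.09 and -0.27 (SE 0.23 each) did not pass, and 1 knockout library at 0 min stood above the rest.

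RPS27A is made as a fusion with ubiquitin, and its ribosomal portion is a target of RNF25, which works with RNF14. It had 106 and 124 RPKM in unrecovered wild-type cells, 107 and 102 RPKM in recovered ones, 110 and 144 RPKM in unrecovered knockout cells, and 85.3 and 87.5 RPKM in recovered ones. The times overlapped in wild-type cells but not in knockout cells, and neither log2 change passed (-0.13 in wild type, adjusted p = 0.733, and -0.54 in the knockout, adjusted p = 0.173, both with SE 0.19). FAU is the other fusion, of a ubiquitin-like protein with the ribosomal protein eS30. It had 258 and 289 RPKM in unrecovered wild-type cells, 530 and 403 RPKM in recovered ones, 399 and 386 RPKM in unrecovered knockout cells, and 387 and 424 RPKM in recovered ones. FAU rose in wild type by 0.76 on the log2 scale (SE 0.16, adjusted p = 0.0373), a call lost under 12 of 22 alternatives, and its log2 change in knockout cells was 0.05 (SE 0.16, adjusted p = 0.914).

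RPS10, the other ZNF598 target, showed the largest fitted change of the 32 genes, on 33 reads. It was listed at 0 and 1.32 RPKM in unrecovered wild-type cells, 21.5 and 17.4 RPKM in recovered ones, 1.04 and 0 RPKM in unrecovered knockout cells, and 31.8 and 11.2 RPKM in recovered ones. These values stand for 1 read at 0 min and 19 at 30 min in wild type, and for 1 and 12 reads in the knockout. The share of reads was 28.7 times higher at 30 min in wild type, with an exact 95% counting interval (Clopper-Pearson) from 4.56 to 1191, and 31.0 times higher in the knockout, from 4.58 to 1324. As a description, since RPS10 passed the minimum only through its 30 min libraries, the fitted log2 changes were 3.74 in wild type (SE 0.58, adjusted p = 0.00808) and 3.81 in the knockout (SE 0.58, adjusted p = 0.0115). Without knockout 30 min replicate 1 the knockout's adjusted p was 0.0629, and with a pseudocount of 0.1 the adjusted p was 0.0654 for wild-type cells and 0.0782 for knockout cells. Leaving out unrecovered wild-type replicate 1 gave an adjusted p of 0.0587, leaving out recovered wild-type replicate 1 gave 0.0919, and leaving out its replicate 2 gave 0.0824. For the knockout, leaving out unrecovered replicate 2 gave 0.143. RPS10 has 31 listed pseudogenes, RPS12 has 31, at 758 RPKM, and RPS20 has 35, at 1154 RPKM. The part of shared reads or of the listed transcript in the level of RPS10 was not tested.

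RPS28, near the mRNA exit, and RPS3A, in the platform, were also thinly read. RPS28 had 5.91 and 3.87 RPKM in unrecovered wild-type cells, 9.43 and 11.6 RPKM in recovered ones, 4.84 and 4.83 RPKM in unrecovered knockout cells, and 13.9 and 21.3 RPKM in recovered ones, on 61 reads in all. It rose in the knockout by 1.64 on the log2 scale (SE 0.34, adjusted p = 0.0414), a call lost under 13 of 21 alternatives, and its change in wild type was 0.99 (SE 0.34, adjusted p = 0.14). RPS3A had 6 and 2 reads in unrecovered wild-type cells, 1 and 0 in recovered ones, 3 and 2 in unrecovered knockout cells, and none in either recovered library. As a description, since it passed the minimum only through its 0 min libraries, its average log2 change was -1.85 (SE 0.44, adjusted p = 0.0324). That call was lost under 9 of 19 alternatives, with an adjusted p up to 0.303 under voom. The ratio of read shares over both genotypes was 0.148, with an exact 95% counting interval from 0.00348 to 0.986. Intervals cover counting error only.

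The remaining comparisons asked whether the loss of RNF14 altered these footprints. At 0 min no gene of the set passed the test between knockout and wild type (limma-trend, 0 of 32, against 0.168% of tested transcripts), where 6 had an unadjusted p below 0.05 (13.6% of tested transcripts) and voom called RPS16 and FAU higher. Over all transcripts, 0.134% were called higher and 0.0336% lower. The difference was below 0 in 8 of the 32 genes, against 56.4% of tested transcripts. Both knockout libraries exceeded both wild-type libraries in 16 genes, against 21.5% of tested transcripts, and lay below them in RPS27 alone, against 29.4%. The largest positive difference was that of RPS16, 0.58 on the log2 scale (SE 0.14, adjusted p = 0.141). The median difference was 0.18, against -0.08 for all tested transcripts and 0.21 for the other abundant transcripts, and it was 0.05 with TPM and 0.01 after quantile normalization.

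At 30 min the difference was below 0 in 29 of the 32 genes, against 48.4% of tested transcripts. Again 0 of 32 genes passed (limma-trend, against 0.126% of tested transcripts), with 6 at an unadjusted p below 0.05 (10.9% of tested transcripts) and 0 called by voom. Over all transcripts, 0.0839% were called higher and 0.0419% lower. Both knockout libraries lay below both wild-type libraries in 19 genes, against 18.3% of tested transcripts, and above them in RPS28 alone, against 20.2%. RPS21 differed by -0.70 (SE 0.20, adjusted p = 0.217), RPS13 by -0.57 (SE 0.13, adjusted p = 0.163) and RPS20 by -0.55 (SE 0.17, adjusted p = 0.256) on the log2 scale. Without knockout 30 min replicate 2, which leaves the shallow library alone, RPS21 was called lower (adjusted p = 0.0145). The median difference was -0.23, against 0.02 for all tested transcripts and -0.12 for the other abundant transcripts.

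The recovery of 28 of the 32 genes had a lower log2 change in the knockout than in wild type, where 45.2% of tested transcripts did. The exceptions were RPS7, RPS10, RPS27 and RPS28. The median of this difference in recovery was -0.47, against 0.09 for all tested transcripts and -0.36 for the 884 other transcripts of at least 100 RPKM, so the other abundant transcripts lay low as well. The test of the difference itself, the interaction of genotype and time, called 0 of 32 genes (limma-trend, against 0.00839% of tested transcripts) and 0 by voom. An unadjusted p below 0.05 was reached by 15 of the 32, against 13.3% of tested transcripts, and the smallest adjusted p was 0.238, for RPS13, with a difference of -0.75 (SE 0.19). The median was -0.39 without knockout 30 min replicate 1 and -0.55 without replicate 2, and it was -0.29 with TPM, -0.16 after quantile normalization and 0.18 with each library centred on the 32 genes. Its sign thus turned under that centring, which sets the level of the 32 genes alike in every library.

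**Figure D4:**
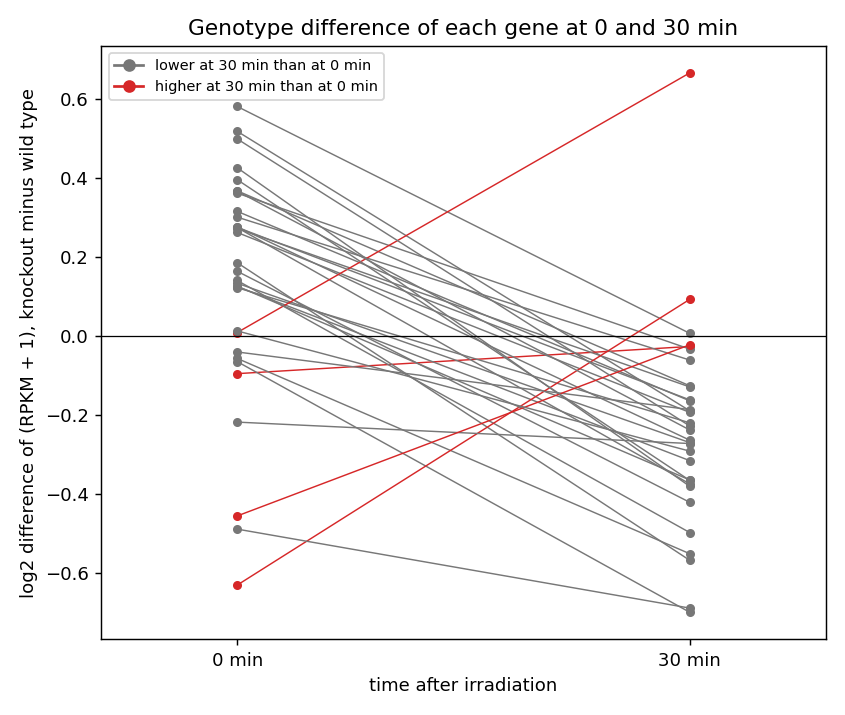
Log2 difference of RPKM + 1 between RNF14 knockout and wild type for each of the 32 genes at 0 min and 30 min, with a line joining the values of a gene. Grey lines mark the 28 genes whose difference is lower at 30 min than at 0 min and red lines the 4 others, RPS7, RPS10, RPS27 and RPS28; no single difference passed the test.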

How the data were processed

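The authors deposited RPKM values for 8 libraries, named as such in the file header, with a transcript length for each of 19580 transcripts. Per the labels' protocols, RNase I footprints of 15 to 70 nt were sequenced, and cutadapt, STAR 2.7.10a and the build hg38 appear in the submitters' processing notes. Not given in the sources used here are the transcript choice, the counted region and the handling of multiply mapped reads. The knockout 30 min replicate 1 column carries a suffix absent from the labels. RPKM times length gave whole reads for 100% of values above 0, within a tolerance of 0.05.

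Testing used the limma-trend method, with limma 3.58.1 under R 4.3.3, on log2(RPKM + 1) for 11920 transcripts with a mean of at least 1 RPKM, with all 8 libraries in 1 fit of 4 group means, 4 residual degrees of freedom, no replicate block, two-sided. Adjusted p-values are Benjamini-Hochberg over all transcripts, with a threshold of 0.05. Changes are on the log2(RPKM + 1) scale, which understates low genes. The fit was tested on simulated data, with known changes put only on well-read transcripts. That run does not cover thinly read genes such as RPS10 and RPS3A. Ratios of reads carry 95% Clopper-Pearson intervals.

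The members and lists were chosen with earlier results of these data known. All 32 genes enter every fit, count and median, but the results of 4 single genes are not reported here. Full values go to called genes whose libraries do not overlap (up to 10 per comparison, by size), to those under 50 reads, to the 6 ubiquitin-related genes, and to the 3 highest and 3 lowest. Lists of other genes could not be matched, because the gene table held 0 Ensembl IDs. Python 3.11.15, numpy 2.4.6, pandas 2.3.3, scipy 1.17.1 and matplotlib 3.10.9 were used.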

Additional observations from a re-analysis of the deposited data

Results flagged for a closer look

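In RPS6, RPS16, RPS23 and RPS25 every wild-type library at 30 min lay above every one at 0 min while every knockout library at 30 min lay below every one at 0 min. Of all tested transcripts, 14% had the wild-type part of this pattern and 30.9% the knockout part. The share with both parts was not counted. RPS6, the 40S protein phosphorylated by S6 kinase, had 369 and 352 RPKM in unrecovered wild-type cells, 455 and 476 RPKM in recovered ones, 510 and 461 RPKM in unrecovered knockout cells, and 282 and 452 RPKM in recovered ones. The difference in recovery, knockout minus wild type on the log2 scale, was -0.81 for RPS6, -0.58 for RPS16, -0.48 for RPS23 and -0.46 for RPS25. The interaction test passed for none of these 4 (limma-trend adjusted p from 0.264 to 0.372), and it called 0 of all 32 genes, with 15 at an unadjusted p below 0.05. With each library centred on the median of the 32 genes, the difference became 0.0736 for RPS16, 0.17 for RPS23 and 0.19 for RPS25. Relative to the set, the difference between genotypes of these 3 thus had the opposite sign, and that centring sets the level of the 32 genes alike in every library.

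The same pattern by genotype, knockout above wild type at 0 min and below it at 30 min in all libraries, was seen in RPS6, RPS23 and RPS25. It was also seen in RPS3, RPS9, RPS14, RPS19 and RPS24, with differences of -0.61, -0.73, -0.65, -0.64 and -0.40, and interaction adjusted p from 0.251 to 0.387 (limma-trend). Some of these separations were narrow. At 30 min the higher knockout library of RPS3 had 636.2 RPKM and the lower wild-type one 637.3 RPKM. For RPS24 these were 1211.1 and 1215.7 RPKM, and for RPS6 451.6 and 455.5 RPKM. Of all tested transcripts, 21.5% had the part at 0 min and 18.3% the part at 30 min, and the share with both was not counted. The share of reads on the 32 genes was higher at 30 min in wild type and lower in the knockout without overlap, a difference of -0.442 percentage points that was not tested.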

How the results depend on the processing

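Depth and time go together here, and 2 libraries a group limit precision. Of 24 calls of single named genes in the recoveries, none changed sign under any alternative. The calls of RPS10 and RPS3A, which are given as a description, are among them. Of these 24, 20 were lost without a trend in the prior, 11 or 9 on leaving out 1 recovered wild-type library, 9 or 7 on leaving out 1 unrecovered knockout library, 5 with median centring and 1 with TPM, and 8 of 14 with only the groups compared. Called genes in wild-type recovery numbered 9; they were 0 without a trend in the prior, 5 with only the groups compared and 1 to 10 when 1 library was left out. The 6 in knockout recovery became 3 with a pseudocount of 0.1 or median centring, 0 without a trend, 1 with only the groups compared and 1 to 9 when 1 library was left out. The 11 in the average became 17 with TPM, 4 without a trend and 7 to 13 when 1 library was left out. Between genotypes, voom called 2 at 0 min, and leaving out 1 library gave 0 at 0 min and 0 to 1 at 30 min. The block on replicate number, whose replicate differences correlated between -0.0794 and 0.0669 across groups, gave 8, 5 and 11 calls in wild type, knockout and average, losing FAU and RPS28, and 0 between genotypes.

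Median changes moved with scaling. In wild type the median was -0.016 with TPM, 0.56 with median centring and -0.13 when centred on the 32 genes, a setting added after seeing the data. In the knockout it was 0.11 after quantile normalization and 0.0763 when centred on the 32. Averaged, it was -0.16 with TPM and 0.22 with median centring. For genotype at 0 min it was 0.0478, 0.31, 0.0142 and -0.20 with TPM, median centring, quantile normalization and centring on the 32, and 0.17 to 0.31 when 1 library was left out. At 30 min it was -0.0769 after quantile normalization and 0.0396 when centred on the 32. The difference in recovery was -0.29, -0.68, -0.16 and 0.18 under those 4.

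Without the most read transcript the share of reads was 1.44% and 1.62% in wild type at 0 and 30 min and 1.63% in the knockout at 0 min. As a share of RPKM the 4 groups had 3.05%, 2.59%, 3.15% and 2.22%. Genes that had not passed changed sign in a few settings: RPS2 in wild type was -0.20 with TPM and -0.32 centred on the 32, and in the knockout it ran from -0.6106 without knockout 0 min replicate 2 to 0.0739 without replicate 1. RPS27A in wild type was 0.15 with median centring. FAU in the knockout was -0.0693 with TPM and -0.0196 without knockout 30 min replicate 2. Differences in recovery of RPS16, RPS23 and RPS25 became 0.0736, 0.17 and 0.19 when centred on the 32. Beyond the construction of each alternative, the cause was not tested.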
